A study of Rattus norvegicus with 3 samples.

Results

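The genes described here encode factors that process pre-mRNA and factors that run protein synthesis. They were chosen by name: every probe set whose only platform gene symbol begins with Hnrn, Srsf, Sf3, Sfpq, Rbm, Cpsf, Srpk, Ddx, Snrp, Tnrc6, Eif, Eef, Pabp, Khdrbs, Celf, Elavl, Tra2, Nono, Ptbp, Pcbp or Ybx. The rule took 121 probe sets, which stand for 72 of the 4736 genes named on the array, 46 in RNA processing and 26 in translation, and each gene was read from its brightest probe set. A further 14 probe sets that carry several symbols, at least 1 of them fitting the rule, were left out, and Pabpc1 and Rbm3 were without a probe set of their own.

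Total RNA of rats was hybridised to 3 Affymetrix expression arrays, 1 array each for samples labelled 0.0 h, 0.1 h and 1.0 h in a time course. Pineal gland, the source of melatonin, and adrenal medulla, the source of circulating catecholamines, are given together as the source of every sample. The labels state no agent, genotype, strain, age or number of animals, and leave unsettled whether 0.1 h was a sampling time. With 1 array per time label there is no replicate, so no difference below has an error or a test, and time cannot be told apart from the array or the animal.

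Pre-mRNA is cut and joined by the spliceosome, which is built from small nuclear ribonucleoproteins and is steered to its sites by SR proteins, which mostly favour the use of an exon, and by hnRNP proteins, which often oppose it. The cleavage and polyadenylation factors then cut the transcript at its 3′ end so that a poly(A) tail can be added. In the cytoplasm, initiation factors load the small ribosomal subunit and the initiator tRNA on the mRNA, elongation factors drive the ribosome along it, and TNRC6 proteins join the microRNA machinery to the enzymes that remove the tail. In the pineal gland, adrenergic signals at night drive transcription through cyclic AMP, and the products of the induced genes depend on these steps.

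Windows at an annotated start are shown for 4 members, from among those at least 2-fold apart between 0.1 h and 0.0 h. Rbm39 and Cpsf7 were the 2-fold lower members with 2 measured probe sets that were both at least 1.5-fold lower at 0.1 h. Hnrnpf, with 1 probe set, and Sfpq, with 2, were the members at least 2-fold higher. Each line gives 250 bases before and 50 bases after the annotated start, 5′ to 3′ on the strand of the gene, from the RefSeq promoter table of the assembly GRCr8. Rbm39 lies at chr3:165156186-165156485 on the minus strand, Cpsf7 at chr1:216592540-216592839 on the plus strand, Hnrnpf at chr4:152755418-152755717 on the plus strand and Sfpq at chr5:144622283-144622582 on the plus strand. Capitals mark matches, on either strand, to 5 short motifs: TGACG, the core of the cyclic AMP response element, CCAAT, the NF-Y box, GGGCGG, the GC box, CCGGAA, the ETS core, and TATAAA, the TATA box.
Rbm39: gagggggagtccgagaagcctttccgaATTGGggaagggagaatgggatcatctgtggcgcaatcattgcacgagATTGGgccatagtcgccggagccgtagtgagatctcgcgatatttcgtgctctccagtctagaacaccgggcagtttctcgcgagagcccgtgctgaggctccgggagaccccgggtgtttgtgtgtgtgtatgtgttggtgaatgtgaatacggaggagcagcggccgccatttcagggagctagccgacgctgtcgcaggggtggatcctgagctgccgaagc
Cpsf7: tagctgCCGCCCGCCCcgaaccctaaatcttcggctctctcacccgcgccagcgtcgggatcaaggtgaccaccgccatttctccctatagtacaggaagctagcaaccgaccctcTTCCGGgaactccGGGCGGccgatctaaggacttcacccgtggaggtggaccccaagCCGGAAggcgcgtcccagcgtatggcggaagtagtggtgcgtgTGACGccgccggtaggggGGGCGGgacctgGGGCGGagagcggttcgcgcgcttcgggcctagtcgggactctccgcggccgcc
Hnrnpf: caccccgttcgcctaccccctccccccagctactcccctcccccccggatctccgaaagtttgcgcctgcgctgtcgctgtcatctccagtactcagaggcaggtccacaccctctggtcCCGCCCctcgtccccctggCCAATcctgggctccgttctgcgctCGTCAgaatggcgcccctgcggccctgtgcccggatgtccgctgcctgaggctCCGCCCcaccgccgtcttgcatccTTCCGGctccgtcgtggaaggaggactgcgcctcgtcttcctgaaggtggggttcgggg
Sfpq: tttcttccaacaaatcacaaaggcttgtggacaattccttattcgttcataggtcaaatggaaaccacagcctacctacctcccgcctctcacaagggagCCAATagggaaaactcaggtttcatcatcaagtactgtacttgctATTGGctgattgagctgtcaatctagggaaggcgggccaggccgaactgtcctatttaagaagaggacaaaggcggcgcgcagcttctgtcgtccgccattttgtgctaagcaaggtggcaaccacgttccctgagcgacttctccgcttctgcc

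In the window of Rbm39, CCAAT was read on the minus strand 223 and 175 bases before the start, and no other motif matched. The Cpsf7 window held 5 copies of GGGCGG, of which those at 244 and 240 bases before the start overlap, 2 of CCGGAA at 134 and 77, and TGACG at 34. The Hnrnpf window held GGGCGG at 130 and 33 bases before the start, CCAAT at 111, TGACG at 86 and CCGGAA at 9. Sfpq had CCAAT at 150 and 105 bases before the start and none of the other 4 motifs. The starts used for Rbm39, Cpsf7 and Sfpq lie inside the annotated genes, which begin further upstream. The Sfpq gene begins at chr5:144621678, so its whole window lies inside the gene. A match is a description of these letters and not a bound site.

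Of the 72 members, 65 had an entry in that table. Tnrc6b, the member with the widest downward difference at 0.1 h, was not among them. TGACG stood in 50.8% of the 65 member windows, against 28.5% of the 3871 windows of genes on the array and 22.0% of all 27457 windows. CCGGAA stood in 47.7% of the member windows, 20.1% of those of genes on the array and 15.8% of all windows. These were the motifs with the widest gap among the 5: GGGCGG was in 63.1%, against 56.2% of windows of genes on the array, CCAAT in 43.1% against 38.2%, and TATAAA in 12.3% against 11.3%. The member windows held a median of 24 CpG dinucleotides, against 18 for genes on the array, while their median GC content was higher by 0.67 percentage points. The part of CpG content in the motif shares was not tested.

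A probe set was called measured on an array where its scaled intensity was above a floor of 262.9, the 40th percentile of all values, and differences are log2 differences between 2 arrays that were both above it. By this rule 63 of the 72 members were measured on all 3 arrays, or 87.5%, against 61.6% of all named genes. Ddx4, a germ cell helicase, Rbm24, Srsf10, Celf2, Sf3b1, Hnrnpm and Pabpc4 were below the floor on every array. Eef1a2, the elongation factor form of neurons and muscle, read 253 at 0.0 h, 416 at 0.1 h and 344 at 1.0 h, above the floor at the later 2 labels. Eif2ak1, the haem-regulated kinase of eIF2, read 275 at 0.0 h, 196 at 0.1 h and 169.7 at 1.0 h, above it at 0.0 h alone.

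The arrays differ in ways that bear on every value. The ratio of 3′ to 5′ signal of the beta-actin control, a sign of RNA or labelling quality, was 10.4 at 0.0 h, 17.8 at 0.1 h and 44.4 at 1.0 h, while that of GAPDH stayed between 14.1 and 18.6. The mean log2 value of 9 spike-in probe sets was higher at 0.1 h than at 0.0 h by 0.28 and lower at 1.0 h than at 0.1 h, by a log2 difference of -0.47. Of 5 pinealocyte markers on the array, 4, 5 and 5 were above the floor at 0.0 h, 0.1 h and 1.0 h, with summed intensities of 49391, 56318 and 43065. These markers did not share a direction. Tph1 read 22074 at 0.0 h and 16982 at 0.1 h, while Asmt, Pdc and Sag were higher at 0.1 h and Aanat was below the floor at 0.0 h. The chromaffin markers Th, Dbh and Slc18a1 were below the floor on every array, while Pnmt and Chgb, the other 2 of the 5 on the array, were above it on every array. Sums over all 5 were 65412, 62114 and 49195, nearly all of it from Chgb, a granule protein of many endocrine and nerve cells. Summed neuron markers, 3 of 4 measured and Elavl4, itself a member, among them, were 6707, 9086 and 4789, with Syt1 below the floor. Most of that sum came from Snap25, at 5477, 8073.5 and 3540, while Nefl and Elavl4 were lower at 0.1 h than at 0.0 h. Summed leukocyte markers, 3 of 3 measured, were 1278, 2043 and 3160, and of these Cd74 was lower at 0.1 h than at 0.0 h. In samples of whole tissue, fewer cells of a type and less RNA per cell cannot be told apart, and the part of these shifts in the results was not tested.

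At 0.1 h against 0.0 h, 6 of the 63 measured members were at least 2-fold lower, or 9.52%, where 4.71% of all 2994 measured genes were. They were Tnrc6b, Rbm39, Srpk2, Cpsf7, Cpsf3 and Rbmx, all of them RNA processing or silencing factors, and all 6 were also at least 2-fold lower at 0.1 h than at 1.0 h. Only 2 members, Hnrnpf and Sfpq, were at least 2-fold higher at 0.1 h, or 3.17%, where 5.68% of all genes were. Of the 24 translation factors measured on these arrays, 0 were 2-fold apart in either direction. The difference from the 39 measured RNA processing members was not tested. The count was also taken among genes whose mean level lay above the median of all genes measured on 3 arrays. There, 3 of 50 members were at least 2-fold lower, or 6.0%, against 4.87% of 1459 genes. The medians there were -0.08 for members and -0.03 for all genes, so the gap to all genes was smaller in that range. That range was chosen after the values had been seen, and the mean level includes the 0.1 h value. The part of level in the count was not tested.

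**Figure D1:**
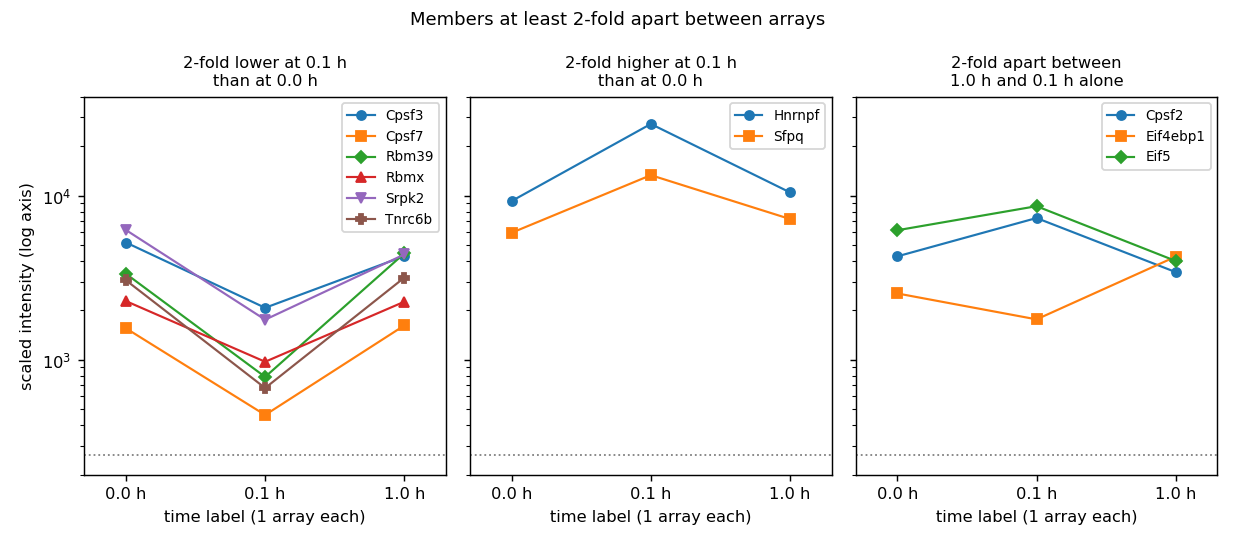
Scaled intensity (log axis) of the 11 members that were at least 2-fold apart between any 2 arrays, by time label, with 1 array per label and lines joining the values of a gene. The 6 genes on the left share a dip at 0.1 h, Hnrnpf and Sfpq in the middle peak there, and on the right Eif4ebp1 differs from Cpsf2 and Eif5; the dotted line is the floor at 262.9.

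The kind of probe set moved with this result. Probe sets whose names begin with rc_AA or rc_AI were designed on expressed sequence tags, and all 6 lower members were read from an rc_AA probe set. Among genes read from rc_AA probe sets, 6 of 28 members were at least 2-fold lower at 0.1 h, against 10.6% of all 946 such genes. Among genes read from rc_AI probe sets, 0 of 11 members were lower, against 1.95% of 359 genes. Among genes read from probe sets without rc_ in the name, 0 of 24 members were lower, against 1.71% of 1639 genes, while 2 of 24 members were higher, against 7.75%. The median log2 difference of 0.1 h minus 0.0 h was -0.14 over all rc_AA genes, -0.02 over all rc_AI genes and 0.11 over all genes without rc_. This split was made after the values had been seen, and its part in the result was not tested.

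**Figure D2:**
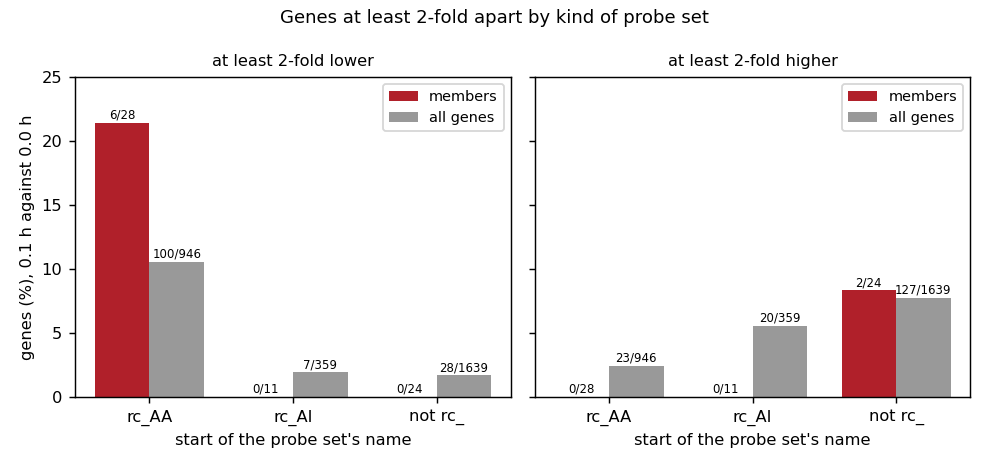
Share of genes (%) at least 2-fold lower (left) or higher (right) at 0.1 h than at 0.0 h, by the start of the probe set's name, for members (red) and all genes (grey), with the counts above the bars. In all, 100 of the 946 genes of the rc_AA class were lower, as were 6 of its 28 members, and both higher members stand outside the rc_ classes.

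Tnrc6b, a scaffold that links Argonaute to deadenylases, read 3052 at 0.0 h, 674 at 0.1 h and 3167 at 1.0 h. It was 4.52-fold lower at 0.1 h than at 0.0 h, with a log2 difference of -2.18, and 4.7-fold higher at 1.0 h than at 0.1 h. The outer arrays were 1.04-fold apart, so the low value stood on the 0.1 h array alone. The gene has 1 probe set, and its reading could not be checked against another.

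Rbm39, a splicing factor related to U2AF, the protein that finds the 3′ splice site, read 3341 at 0.0 h, 788 at 0.1 h and 4448 at 1.0 h. Its log2 difference was -2.08 for 0.1 h minus 0.0 h and 2.50 for 1.0 h minus 0.1 h, or 4.24-fold and 5.64-fold. A dimmer probe set of the same gene read 502 at 0.0 h, 271 at 0.1 h and 453 at 1.0 h, a log2 difference of -0.89 for 0.1 h minus 0.0 h, so both were lowest at 0.1 h but by different amounts.

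Rbmx, an RNA-binding protein of the spliceosome, read 2279 at 0.0 h, 974 at 0.1 h and 2260.0 at 1.0 h, 2.34-fold lower at 0.1 h than at 0.0 h. Its readings at 1.0 h and 0.0 h were 1.01-fold apart. Rbm10, a regulator of exon skipping, was near level, at 3674 at 0.0 h, 3947 at 0.1 h and 4015 at 1.0 h. The median of the 3 measured RBM genes was -1.23 for 0.1 h minus 0.0 h, and it rests on Rbm39 and Rbmx. It was negative under each of the 7 alternatives that gave a median. Those alternatives read the same probe sets of Rbm39 and Rbmx, so they could not check its sign against another reading.

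Srpk2, a kinase that phosphorylates the serine-arginine stretches of SR proteins, read 6169.5 at 0.0 h, 1758 at 0.1 h and 4382 at 1.0 h, 3.51-fold lower at 0.1 h than at 0.0 h. Its other probe set read 2962 at 0.0 h, 2507 at 0.1 h and 3695 at 1.0 h, a log2 difference of -0.24, which is less than 1.5-fold. The size of the dip therefore depends on the probe set, although both were lowest at 0.1 h.

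The SR genes did not share 1 direction. Srsf2, which promotes exon inclusion, read 37179 at 0.0 h, 19330.3 at 0.1 h and 31961 at 1.0 h, 1.92-fold lower at 0.1 h than at 0.0 h, but its dimmer probe set had a log2 difference of 0.06. Srsf5, whose mRNA was first found as an insulin-induced transcript in rat liver cells, read 28817 at 0.0 h, 41763 at 0.1 h and 30014 at 1.0 h, with a log2 difference of 0.54 for 0.1 h minus 0.0 h. Srsf11 was the SR gene that differed most at 1.0 h: it read 33719 at 0.0 h, 33753 at 0.1 h and 18516 at 1.0 h, 1.82-fold lower at 1.0 h than at 0.0 h, with the first 2 arrays level.

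Tra2b, a splicing activator that binds purine-rich exon elements, read 8488 at 0.0 h, 6304 at 0.1 h and 5737 at 1.0 h. The log2 difference of 1.0 h minus 0.0 h was -0.56 from that probe set, -0.91 and -0.59 from the other 2 measured on both arrays. All 3 were thus lower at 1.0 h than at 0.0 h. The median of the 4 SR and TRA2 genes was -0.39 for that comparison, between -0.90 and -0.19 over 8 alternatives.

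The cleavage and polyadenylation genes went apart from one another. Cpsf7, a subunit of the cleavage factor that picks the upstream element of a poly(A) site, read 1557 at 0.0 h, 462 at 0.1 h and 1620.3 at 1.0 h, 3.37-fold lower at 0.1 h than at 0.0 h, and its second probe set, designed on the same sequence, had a log2 difference of -0.76. Cpsf3, the endonuclease that makes the cut, read 5180.1 at 0.0 h, 2075 at 0.1 h and 4281 at 1.0 h, 2.5-fold lower at 0.1 h than at 0.0 h. At 1.0 h they were 1.04-fold and 1.21-fold apart from 0.0 h.

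Cpsf2, the inactive partner of that endonuclease, had the opposite pattern and read 4268 at 0.0 h, 7302 at 0.1 h and 3422 at 1.0 h. It was 1.71-fold higher at 0.1 h than at 0.0 h and 2.13-fold lower at 1.0 h than at 0.1 h. Cpsf4, a zinc finger subunit that helps to read the AAUAAA signal, read 4727 at 0.0 h, 4527 at 0.1 h and 6636 at 1.0 h. The median of the 4 genes was -0.69 for 0.1 h minus 0.0 h and lay between -0.97 and -0.06 over 8 alternatives, so the sign was kept and the size was not.

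Hnrnpf, which binds G-rich runs near exons and poly(A) sites, had the widest upward difference among the members at 0.1 h. It read 9265 at 0.0 h, 27278 at 0.1 h and 10455 at 1.0 h, 2.94-fold higher at 0.1 h than at 0.0 h and 2.61-fold lower at 1.0 h than at 0.1 h. The only probe set of the gene carries _s in its name, which marks probes that can match more than 1 transcript, so related transcripts may share this signal.

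Sfpq, a splicing and paraspeckle protein that also acts in transcription, read 5939.6 at 0.0 h, 13313 at 0.1 h and 7199 at 1.0 h, 2.24-fold higher at 0.1 h than at 0.0 h. Its second probe set, designed on the same cDNA, read 4181 at 0.0 h, 8518 at 0.1 h and 6620.0 at 1.0 h, with log2 differences of 1.03 for 0.1 h minus 0.0 h and 0.66 for 1.0 h minus 0.0 h. Both gave the highest value at 0.1 h. Hnrnpu, a nuclear matrix protein that shapes chromatin, read 7941 at 0.0 h, 14329 at 0.1 h and 9549 at 1.0 h, 1.8-fold higher at 0.1 h than at 0.0 h, and its second probe set had a log2 difference of 0.52.

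The other hnRNP genes lay closer to level. Hnrnpa1, a repressor of exon use, read 22293 at 0.0 h, 14217 at 0.1 h and 21266 at 1.0 h, 1.57-fold lower at 0.1 h than at 0.0 h. A second bright probe set, designed on a cDNA and not on an expressed sequence tag, read 13585 at 0.0 h, 9024 at 0.1 h and 12766 at 1.0 h, a log2 difference of -0.59, beside -0.65 from the first. Those 2 were within 0.1 of each other, while the 2 dim probe sets of the gene had log2 differences of 0.02 and 0.58.

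Hnrnpa2b1, which carries mRNAs to cell processes, had log2 differences of -0.52, -0.93 and 0.17 from its 3 probe sets measured at 0.1 h and 0.0 h, so 1 of them opposed the others. Hnrnpc, which coats uridine runs of nascent RNA, read 20881 at 0.0 h, 18996 at 0.1 h and 13136 at 1.0 h, 1.59-fold lower at 1.0 h than at 0.0 h. The median of the 8 measured hnRNP genes was 0.04 for 0.1 h minus 0.0 h, and its sign changed under 2 of 9 alternatives (spike-in scaling and the lower floor).

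**Figure D3:**
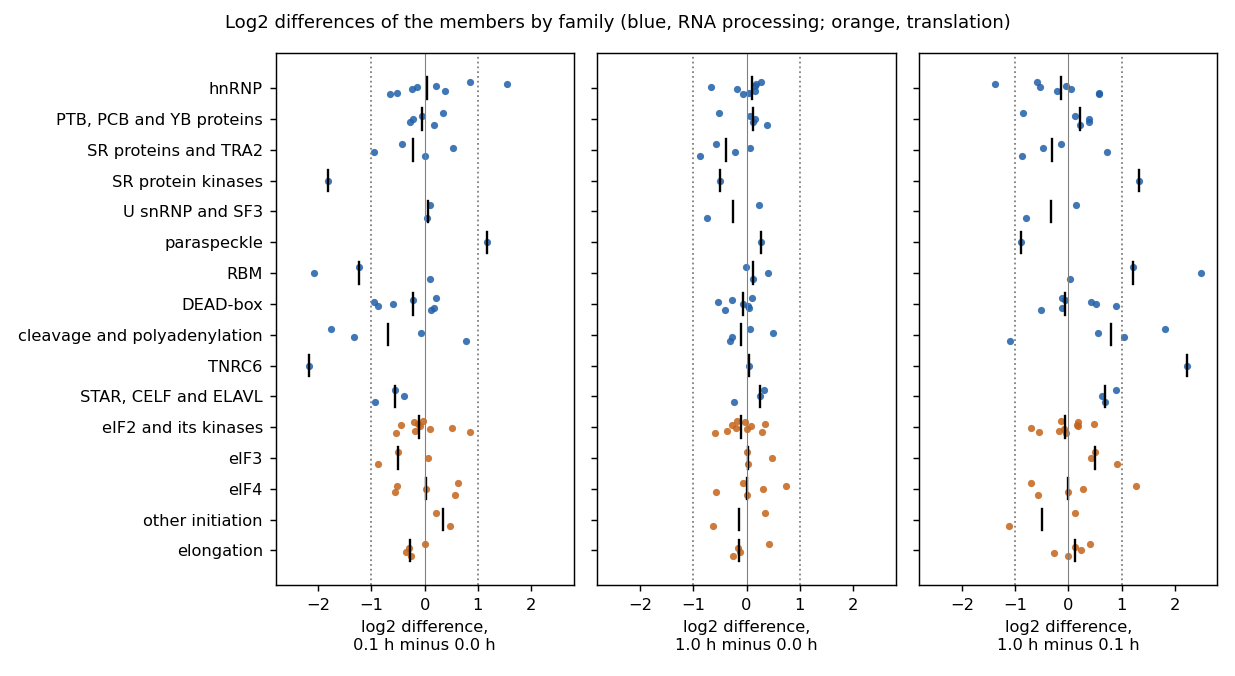
Log2 differences of the measured members by family, for 0.1 h minus 0.0 h (left), 1.0 h minus 0.0 h (middle) and 1.0 h minus 0.1 h (right), with 1 point per gene and a black bar at the family median. Dotted lines mark 2-fold: in the middle panel every member lies between them, and the points beyond them stand in the outer panels, which both hold the 0.1 h array.

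Ptbp1, the polypyrimidine tract protein that holds back neuronal exons in non-neuronal cells, read 14147 at 0.0 h, 11738 at 0.1 h and 15379 at 1.0 h, with a log2 difference of -0.27 for 0.1 h minus 0.0 h. Its remaining probe sets were below the floor on at least 1 array. Ybx3, a cold shock domain protein that binds mRNA, was the member of its family that differed most, at 12012 at 0.0 h, 15183 at 0.1 h and 8434 at 1.0 h. None of the 5 PTB, PCB and YB genes was 2-fold apart between any arrays. Over all genes, 5.68% were higher by as much and 4.71% lower at 0.1 h than at 0.0 h. At 1.0 h the shares were 2.34% and 2.64% against 0.0 h, and 4.04% and 5.06% against 0.1 h. With 5 genes, such a count cannot be told apart from these shares.

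Among the core snRNP genes, Snrpd3, a protein of the Sm ring, read 7020.1 at 0.0 h, 7521 at 0.1 h and 8276 at 1.0 h. Snrpb, of the same ring, read 1988 at 0.0 h, 2053 at 0.1 h and 1183 at 1.0 h, 1.68-fold lower at 1.0 h than at 0.0 h. The 2 genes thus differed from each other in direction at 1.0 h.

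The 7 measured DEAD-box helicases, which unwind RNA at the cost of ATP, had a median of -0.21 for 0.1 h minus 0.0 h, negative under all 8 alternatives. Ddx3x, which opens structured 5′ ends for the ribosome, read 74139 at 0.0 h, 49238 at 0.1 h and 70435 at 1.0 h, 1.51-fold lower at 0.1 h than at 0.0 h. Ddx39b, which loads export factors on spliced mRNA, read 7068 at 0.0 h, 3862 at 0.1 h and 7166 at 1.0 h, and its 4 probe sets had log2 differences between -0.93 and -0.44, the last from a cDNA probe set. Ddx42 of the U2 snRNP read 1912 at 0.0 h, 992 at 0.1 h and 1325 at 1.0 h. In contrast, Ddx50, a nucleolar helicase, read 24570.4 at 0.0 h, 28416 at 0.1 h and 26268 at 1.0 h, which is within 1.2-fold on every array.

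Celf1, which binds GU-rich elements and speeds the decay of its targets, read 25548 at 0.0 h, 13477 at 0.1 h and 21756 at 1.0 h, 1.9-fold lower at 0.1 h than at 0.0 h. Log2 differences from its other probe sets were -1.25 and -0.81, so all 3 were lowest at 0.1 h, and all 3 have names that begin with rc_AA. Elavl4, a neuronal protein that stabilises AU-rich mRNAs, read 708 at 0.0 h, 542 at 0.1 h and 842 at 1.0 h, and Khdrbs1 (Sam68), which joins signalling to splicing, read 2396 at 0.0 h, 1622 at 0.1 h and 3015 at 1.0 h. These 3 genes were all lowest at 0.1 h, with a median of -0.56 for 0.1 h minus 0.0 h.

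The translation factors are given next. Of the 24 measured at 0.1 h and 0.0 h, 2 were higher by at least 1.5-fold and 1 was lower by as much, against 4 and 12 of the 39 RNA processing members. At 1.0 h against 0.0 h, 3 of 24 and 3 of 39 were at least 1.5-fold apart, or 12.5% and 7.69%. For that pair, 10.1% of all genes were higher by as much and 11.1% were lower. Of the translation members 8 of 24 were read from rc_AA probe sets, against 20 of 39 RNA processing members, and the difference between the groups was not tested. Between 0.1 h and 0.0 h, 15.1% of all genes were higher by at least 1.5-fold and 14.2% lower by as much. Over all 63 members, 6 were higher and 13 lower, or 20.6%. Of those 13, 12 were read from rc_AA probe sets and 1 from an rc_AI probe set. The median log2 difference of 0.1 h minus 0.0 h was -0.11 for translation and -0.21 for RNA processing. For all 63 members it was -0.14, and over all genes it was -0.00.

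**Figure D4:**
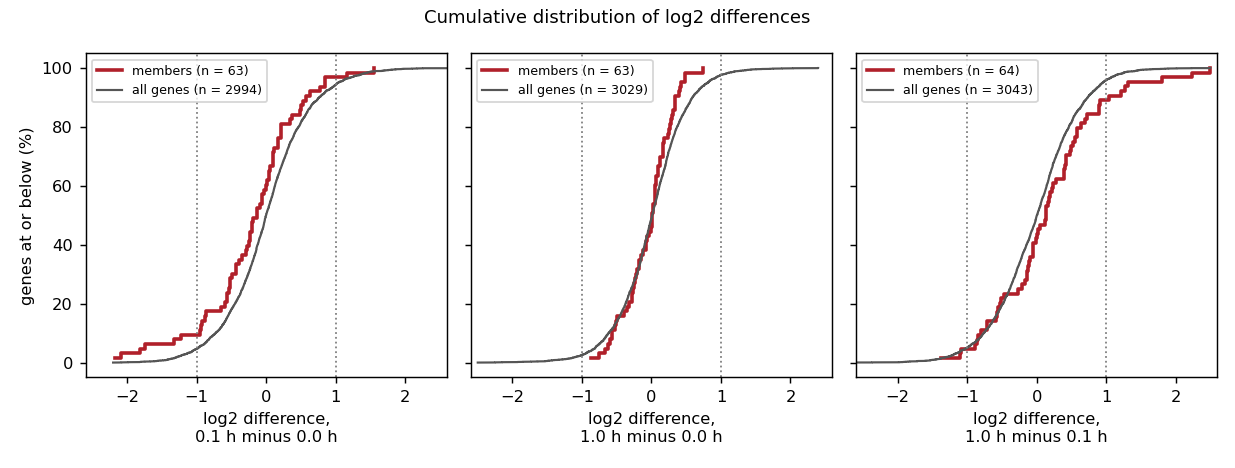
Cumulative share of genes (%) by log2 difference, members in red and all genes in grey, for the 3 pairs of arrays, with dotted lines at 2-fold. The member curve lies left of the grey one at 0.1 h minus 0.0 h (medians -0.14 and -0.00), close to it at 1.0 h minus 0.0 h (0.01 and 0.01) and right of it at 1.0 h minus 0.1 h (0.13 and 0.00).

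In the eIF2 group, which brings the initiator tRNA and is shut down by kinases under stress, Eif2s1, the subunit that is phosphorylated, read 24110.2 at 0.0 h, 20928 at 0.1 h and 23589 at 1.0 h. Its widest log2 difference was -0.20, for 0.1 h minus 0.0 h. Eif2ak3 (PERK), the kinase of the endoplasmic reticulum, read 1624 at 0.0 h, 2916 at 0.1 h and 1986 at 1.0 h, 1.8-fold higher at 0.1 h than at 0.0 h. Eif2ak2 (PKR), the kinase that senses double-stranded RNA, read 3951 at 0.0 h, 2723 at 0.1 h and 2625 at 1.0 h, 1.51-fold lower at 1.0 h than at 0.0 h.

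The genes of eIF2B, the exchange factor that recharges eIF2 with GTP, were all on the array with Eif2b1 to Eif2b5. Eif2b3 read 21761 at 0.0 h, 30910.2 at 0.1 h and 18899 at 1.0 h, with a log2 difference of 0.51 for 0.1 h minus 0.0 h, and its cDNA probe sets gave 0.21 and -0.11. The other 4 had log2 differences between -0.44 (Eif2b5) and 0.10 (Eif2b2). None of the 5 was 1.5-fold apart between 0.1 h and 0.0 h, where 15.1% of all genes were higher by as much and 14.2% lower.

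Of the eIF3 subunits, which hold the small ribosomal subunit open for mRNA, Eif3b read 20513 at 0.0 h, 11126 at 0.1 h and 20855 at 1.0 h, 1.84-fold lower at 0.1 h than at 0.0 h. Eif3m read 10368 at 0.0 h, 7379.9 at 0.1 h and 10409 at 1.0 h and Eif3d, a subunit that can bind the cap, read 18692 at 0.0 h, 19474 at 0.1 h and 26198 at 1.0 h. Eif3b and Eif3m were thus lowest at 0.1 h and level between the outer arrays, while Eif3d was highest at 1.0 h.

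Eif4e, the cap-binding protein, read 2035 at 0.0 h, 1380.3 at 0.1 h and 1372 at 1.0 h, with log2 differences of -0.56 for 0.1 h minus 0.0 h and -0.57 for 1.0 h minus 0.0 h. Both later arrays were lower than the first by nearly the same amount. Eif4h, a partner of the eIF4A helicase, read 7056 at 0.0 h, 10962 at 0.1 h and 6706 at 1.0 h, 1.55-fold higher at 0.1 h than at 0.0 h, and a second probe set had a log2 difference of 0.91.

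Eif4ebp1, the repressor that mTOR releases from Eif4e, read 2537 at 0.0 h, 1765 at 0.1 h and 4250.1 at 1.0 h from its brightest probe set, 2.41-fold higher at 1.0 h than at 0.1 h. The probe set of its cDNA that was measured on all arrays read 879 at 0.0 h, 1073 at 0.1 h and 830.4 at 1.0 h, with a log2 difference of -0.37 for the same pair. The readings of this gene oppose each other, so no direction can be given for it.

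Eif5, which triggers GTP hydrolysis at the start codon, read 6153 at 0.0 h, 8619 at 0.1 h and 4001 at 1.0 h, 2.15-fold lower at 1.0 h than at 0.1 h, and its dimmer probe set had a log2 difference of -0.12. Eif5b, which joins the ribosomal subunits, read 21267 at 0.0 h, 24583 at 0.1 h and 26954 at 1.0 h. Of the elongation factors, Eef1a1, which carries aminoacyl-tRNA to the ribosome, read 37988 at 0.0 h, 31952 at 0.1 h and 31912 at 1.0 h, and Eef2, which moves the ribosome along, read 31552 at 0.0 h, 25878 at 0.1 h and 28342 at 1.0 h. The later arrays were within 1.3-fold of the first for both, and for Eef2 the dimmer probe sets had log2 differences between -0.57 and 0.76 for 0.1 h minus 0.0 h. Eef2k, the kinase that stops Eef2, read 1146 at 0.0 h, 1153 at 0.1 h and 1536 at 1.0 h. Its dimmer probe set read 353 at 0.0 h, 514 at 0.1 h and 289 at 1.0 h. For 1.0 h minus 0.0 h, the log2 differences of the 2 probe sets were 0.42 and -0.29, which oppose each other.

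At 1.0 h against 0.0 h, 0 of 63 members were 2-fold higher or more and 0 were 2-fold lower or more, where 2.34% and 2.64% of all 3029 measured genes were. At 1.5-fold, 1 member was higher, against 10.1% of all genes, and it was Eif4ebp1, whose probe sets oppose each other, so that 0 of 62 were higher without it. In the other direction, Srsf11, Snrpb, Hnrnpc, Eif5 and Eif2ak2 were the 5 members lower, or 7.94%, against 11.1%. The members' median was 0.01, with 0.05 for RNA processing and -0.01 for translation.

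At 1.0 h against 0.1 h, 7 of 64 members were at least 2-fold higher, or 10.9%, where 4.04% of all 3043 genes were. They were the 6 genes with a dip at 0.1 h and Eif4ebp1, whose probe sets oppose each other, and without it the count was 6 of 63, or 9.52%. Among genes read from rc_AA probe sets, 6 of 28 members were higher, or 21.43%, against 9.04% of 951 genes. Above the median level, 4 of 50 members were, or 8.0%, against 3.5% of 1459 genes. In the other direction, Hnrnpf, Eif5 and Cpsf2 were at least 2-fold lower, or 4.69%, against 5.06% of all genes. At 1.5-fold, 13 members were higher and 10 lower, or 20.3% and 15.6%, against 14.6% and 15.9% of all genes. This comparison shares the 0.1 h array with the first and is not a second observation of it.

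Taking each array against both of the others, the 0.1 h array held 6 of 63 members that were at least 2-fold lower and 1, Hnrnpf, that was 2-fold higher or more, where 2.33% and 1.61% of the 2917 genes measured on all arrays were. No member was 2-fold apart from both others at 0.0 h, where 0.343% of all genes were higher and 1.1% lower, or at 1.0 h, where 0.309% were higher and 1.3% lower.

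Genes with more than 1 probe set give a second reading of the same RNA, though not a replicate, and pairs that share a design sequence also share probes or lie close together. Of the 23 members with at least 2 measured probe sets, all probe sets had the same sign in 15 for 0.1 h minus 0.0 h, or 65.2%, against 60.9% of all such genes. For 1.0 h minus 0.0 h they did so in 7 of 23, or 30.4%, against 54.5%, and for 1.0 h minus 0.1 h in 18 of 24, or 75.0%, against 58.5%. The median range between probe sets of a member was 0.54 on the log2 scale for 0.1 h minus 0.0 h.

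**Figure D5:**
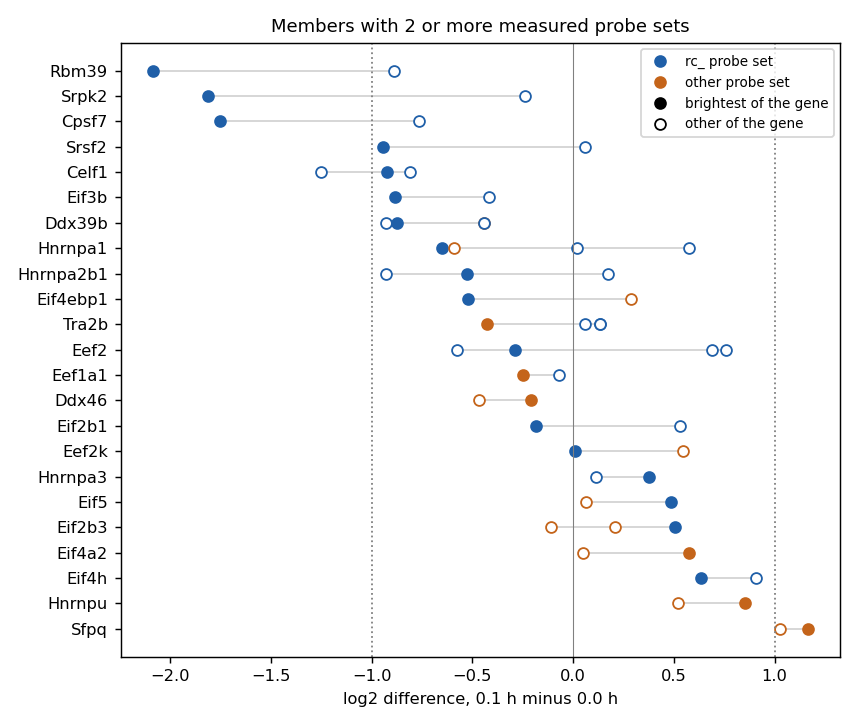
Log2 difference of 0.1 h minus 0.0 h for every measured probe set of the 23 members with at least 2, with filled points for the brightest probe set of a gene, open points for its others, blue for names that begin with rc_ and orange for the rest. Near the top, Rbm39, Srpk2, Cpsf7 and Celf1 lie left of 0 with all their probe sets, while Srsf2 among them has 1 at 0.06. Sfpq and Hnrnpu at the bottom lie right of 0 with all of theirs.

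Genes of the same steps whose names lie outside the rule were read from lists drawn up by hand. Of 9 other splicing genes measured, the median log2 difference was 0.57 for 0.1 h minus 0.0 h. For that pair 1 gene was at least 2-fold higher, where 5.68% of all genes were. It was Dhx9, an RNA helicase, which read 5195 at 0.0 h, 10417 at 0.1 h and 4438 at 1.0 h. At 1.0 h against 0.0 h, 1 was at least 2-fold lower and 1 higher, where 2.64% and 2.34% of all genes were. Matr3, a nuclear matrix protein that partners Sfpq, read 21972 at 0.0 h, 19724 at 0.1 h and 7599 at 1.0 h, 2.89-fold lower at 1.0 h, and Prpf3, of the U4/U6 snRNP, read 295 at 0.0 h, 385 at 0.1 h and 678 at 1.0 h, 2.3-fold higher from a value near the floor. At 1.0 h against 0.1 h, Pnn, Matr3, Dhx9 and Cirbp were at least 2-fold lower, 4 of 9, where 5.06% of all 3043 genes were. Each of the 4 has 1 probe set.

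Of 10 measured genes of polyadenylation, export and decay, Ncl (nucleolin), which acts in ribosome assembly, was the 1 at least 2-fold apart at 0.1 h. It read 8521 at 0.0 h, 24055 at 0.1 h and 12460.2 at 1.0 h, 2.82-fold higher at 0.1 h than at 0.0 h. Over all genes, 5.68% were at least 2-fold higher and 4.71% lower for that pair. The Ncl probe set carries _s in its name, and the second probe set of the gene is not given here. Snd1, a nuclease of the silencing complex, was the 1 measured gene of 3 silencing genes on the array. It read 3173 at 0.0 h, 3726 at 0.1 h and 1431 at 1.0 h, 2.22-fold lower at 1.0 h than at 0.0 h. Snd1 has 2 probe sets, and these values are from the brighter of them. Of 4 tRNA synthetases measured, Tars1 and Kars1 were 2.38-fold and 2.25-fold lower at 0.1 h than at 0.0 h, both from rc_AA probe sets. At least 2-fold lower were 4.71% of all genes and 10.6% of those read from rc_AA probe sets. Tars1 read 9174 at 0.0 h, 3862 at 0.1 h and 7464 at 1.0 h. Kars1 read 5214 at 0.0 h, 2316 at 0.1 h and 5394 at 1.0 h. Among 8 measured release factors and translation signalling genes, 0 were 2-fold apart between 0.1 h and 0.0 h, with a median of 0.13. Between 1.0 h and 0.0 h the count was 0 of 8, and between 1.0 h and 0.1 h it was 0 of 9. With so few genes, these counts cannot be told apart from the shares over all genes.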

How the data were processed

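Each of the 3 arrays gave 1 linear intensity per probe set as deposited. From the deposited intensity values, the means without the extreme values were 2503.7, 2503.9 and 2503.7, so the authors had scaled the arrays. How probe sets were summarised and corrected for background is not stated in the sources used here. The 8799 probe sets, less 59 controls, were named through the platform annotation: 7006 had 1 symbol, 308 several and 1426 none. A gene was read from its probe set of highest mean log2 intensity. Values were taken to log2 and scaled to equal medians over probe sets above the floor, the 40th percentile, which shifted the arrays by 0.008, 0.042 and -0.05. Differences needed both arrays above the floor and were counted at 2-fold or more. The number of arrays limits the precision.

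Members, lists and tests were chosen with earlier results of these data known. Named genes were members past 2-fold, as many as 12 in each direction of a comparison, for other families the member with the highest mean value, 11 set examples, and list genes past 2-fold, as many as 4 in each direction. Other members named in the text were chosen after their values were seen. The alternatives were the deposited scaling, quantile and cyclic loess normalisation (limma 3.58.1, R 4.3.3), spike-in scaling, floors at the 20th and 60th percentile, other probe sets and a threshold of 1.5-fold. The scripts (Python 3.11.15, pandas 2.3.3) were tested on simulated data. The protein composition of members was planned and not run, since protein sequences were not used here.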

Additional observations from a re-analysis of the deposited data

How the results depend on the processing

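Of the 18 differences of 2-fold or more among members named by the rule, all 18 stayed past 2-fold with the deposited scaling, quantile or cyclic loess normalisation and the floor at the 20th percentile, and all 14 still measured did with the floor at the 60th. Spike-in scaling, which moved the median of all genes by -0.28 (0.1 h minus 0.0 h), 0.21 (1.0 h minus 0.0 h) and 0.47 (1.0 h minus 0.1 h), kept 14 of 18, and the mean of all probe sets kept 13 of 16, both with no change of direction. The planned second reading ranked a gene's probe sets after those marked _g_at were left out, which leaves 12 to 14 members and gives no second reading of Sfpq or Cpsf7; it kept 0 of 3. A second reading with all probe sets ranked, chosen after seeing the data, covers 23 to 24 members and kept 1 of 9, Sfpq, with 7 under 2-fold in the same direction and Eif4ebp1 at -0.37 for 1.0 h minus 0.1 h. Leaving out probe sets marked _s, _f, _i or _r, also chosen after seeing the data, kept 15 of 16, and Eif4ebp1 was again at -0.37. Both turn Eif4ebp1 by construction, since another probe set is read. For 0.1 h against 0.0 h, the 2 members higher became 1 with spike-in scaling, 0 in the planned second reading, 1 in the full one, 1 without the marked probe sets and 6 at 1.5-fold. The 6 lower became 11 with spike-in scaling, 1 in the planned second reading (Celf1), 0 in the full one and 13 at 1.5-fold. They became 7 and 4 with the floors at the 20th and 60th percentile, and 5 with the mean of all probe sets. Cpsf7 and Tnrc6b, which read 462 and 674 at 0.1 h, were not measured with the floor at the 60th. The median of -0.14 became -0.41 with spike-in scaling, 0.038 with the mean of all probe sets, 0.054 in the planned second reading and 0.057 in the full one, where all genes had -0.28, 0.03, 0.14 and 0.11. For 1.0 h against 0.0 h, the 0 higher became 1 at 1.5-fold, the 0 lower became 1 with the mean of all probe sets and 5 at 1.5-fold, and the median of 0.01 became 0.21 with spike-in scaling and -0.12 in the planned second reading (all genes 0.05). For 1.0 h against 0.1 h, the 7 higher became 16 with spike-in scaling, 4 with the mean, 0 in either second reading and 13 at 1.5-fold, the 3 lower became 0 with spike-in scaling, 0 in either second reading and 10 at 1.5-fold, and the median of 0.13 became 0.60 with spike-in scaling, -0.077 in the planned second reading and -0.0075 in the full one (all genes -0.08 and -0.07). The 6 members lower at 0.1 h than on both other arrays became 10 with spike-in scaling and 0 in either second reading, and the 1 higher became 0 with any of these and 0 without the marked probe sets. No replicate could be left out, since each time label has 1 array. Values close to the floor of 262.9 limit Prpf3, the dim probe set of Rbm39 and the 0.1 h reading of Cpsf7.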
